A study of Canis lupus familiaris with 4 samples.

Results

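Heat shock proteins and co-chaperones were followed in canine mammary ductal carcinoma and in the mammary tissue beside it. Members were the genes whose symbol belongs to the HSP70, HSP110, HSP90, small heat shock protein, J-domain (DNAJ) and BAG families, the heat shock factors, the chaperonin TRiC, and the disulfide isomerases, oxidases and lectin chaperones of the endoplasmic reticulum (ER). The rule used symbols and no measured value, but it was set with earlier results of these data known. It took 60 of the 11277 genes of the count tables. By textbook location 39 members act in the cytosol or nucleus, 15 in the ER, 5 in the mitochondrion and 1, HSPB11, in the cilium.

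Chaperones hold unfolded chains and release them in cycles driven by ATP. In the HSP70 cycle a J-domain protein delivers the client and stimulates ATP hydrolysis, a BAG protein or HSP110 releases the nucleotide, and HSP90 or TRiC takes over particular clients such as kinases, steroid receptors, actin and tubulin. The ER has its own set, which also forms disulfide bonds and reads the glycans of secreted proteins, and it is induced by the unfolded protein response, while the cytosolic set is induced by heat shock factors.

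Total RNA came from surgical tissue of 6 female, unneutered dogs of various breeds, aged 5 to 14 years, with early-stage disease. RNA of 3 dogs was pooled for each of the 4 libraries, namely carcinoma (T1, T2) and adjacent non-tumor tissue (C1, C2, the control). By the study's account C1 and T1 come from the same dogs (pool 1) and C2 and T2 from the other dogs (pool 2), so n = 2 counts pools, and variation between single dogs is not seen. No treatment or genetic change was applied to either tissue, and the control is tissue of a tumor-bearing gland rather than of a healthy one.

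Pool 1 held 32352002 counts in control and 35496260 in carcinoma and pool 2 only 4027367 and 3236218, so pool 2 sets the precision of weak genes. Levels are CPM, the counts scaled to a common library size after TMM. An unseen gene could hold up to 3 counts, or 0.0858 to 0.892 CPM by library, for counting error only. All 60 members passed the filter on low counts, as did all 11277 genes of the count tables. No member was at 0 in any library, with 13 to 19773 counts per member and library. The 9 measured luminal epithelial markers had counts in all libraries, of which ELF5, ESR1 and PGR were called lower in carcinoma. Striated muscle markers separated the tissues most. Of 16 measured, 15 fell in carcinoma, the exception being TNNI2, and their summed level was 2112 and 3265 CPM in the controls against 47.6 and 79.7 CPM in the carcinomas, with MYL3 at 0 in both carcinomas and MYLPF, MYL2, TNNT3 and MB at 0 in T2. In bulk tissue, fewer cells of a type and less RNA per cell cannot be told apart.

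The comparison of carcinoma with control asked which chaperones change in the tumor. BAG3, the stress-induced co-chaperone that links HSP70 to small heat shock proteins and to selective autophagy, was the 1 member that rose, 2.79-fold, at the threshold of an adjusted p under 0.05 and a 2-fold change defined below. No member passed that threshold as lower. The other 59 members stayed within 2-fold, as did 85.8% of all genes, and ERO1L, the ER oxidase at 0.82 on the log2 scale, had the largest change among them. The median log2 fold change of the members was 0.01, beside 0.03 over all genes.

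A gene is called here at an adjusted p under 0.05 (edgeR's quasi-likelihood test, Benjamini-Hochberg over all 11277 genes) and a change of at least 2-fold. By this rule 4.62% of all genes were called higher and 5.24% lower. At any fold, 13.9% of all genes passed the adjusted p alone, and among the members BAG3 was again the only one. At an unadjusted p under 0.05 there were 5 members higher and 3 lower, against 14.6% and 13.9% of all genes, and DESeq2 called 1 member higher and 0 lower. This test counts the offset between pools as error. A second fit took the pool as a block, which compares each carcinoma with the control of the same dogs, and is named the paired fit below. At an adjusted p under 0.05 and any fold it passed 33.8% of all genes as higher and 30.3% as lower, and 13 members as higher and 20 as lower. It rests on 1 residual degree of freedom per gene and on a dispersion that edgeR shares over genes. It passes most genes, so its calls of members are read beside those shares. Scaled by total counts alone it passed 14 members as higher and 10 as lower. In each of the 5 fits with the block (edgeR under TMM, RLE, total counts or a stricter filter, and DESeq2) 7 members passed as higher and 8 as lower, against 18.2% and 16.1% of all genes.

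The libraries themselves gave a similar count. Both carcinomas lay above both controls for 9 members and below both for 14, against 29.6% and 28.0% of all genes, and the 2 groups overlapped for the remaining 37. Carcinoma was above its own control in both pools for 23 members and below it in both for 22, and the pools disagreed for 15. Over all genes these shares were 45.0% for both pools higher and 39.4% for both lower. An exact permutation test of 2 against 2 libraries cannot go below p = 0.333, so none was run on single members.

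**Figure D1:**
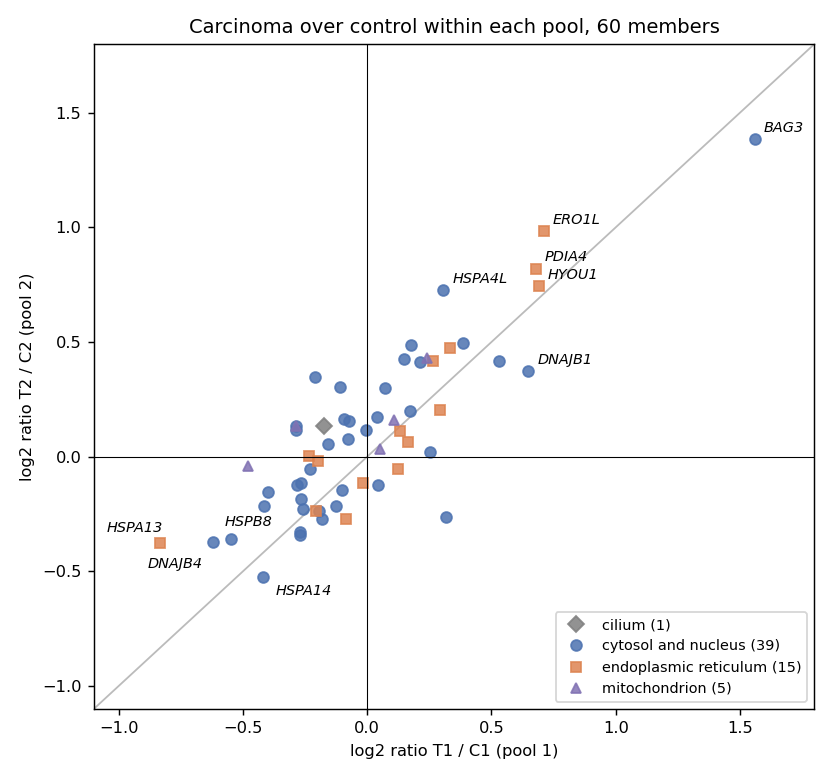
Each point is 1 of the 60 members, with the log2 ratio of carcinoma to control CPM in pool 1 on the horizontal axis and in pool 2 on the vertical axis; the diagonal marks equal ratios, and colour and shape give the compartment. BAG3 stands apart at 1.56 and 1.39, the ER members ERO1L, PDIA4 and HYOU1 follow, and most members lie near 0.

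Among the co-chaperones of the cytosol, all 6 BAG proteins were measured. BAG3 was at 11.5 CPM in C1 and 12.7 in C2 against 34.0 in T1 and 33.3 in T2. Both carcinomas lay far above both controls, and libraries of the same tissue were close together. The mean was 12.1 ± 0.873 CPM in control and 33.6 ± 0.465 in carcinoma (SD, n = 2), a log2 fold change of 1.48 (SE 0.19, adjusted p = 0.0102 by edgeR). In the paired fit it was 1.52 (adjusted p = 1.26e-27 by edgeR). Without C1 the log2 fold change of BAG3 was 1.35 with an adjusted p of 0.0689, and without T1 it was 1.42 with an adjusted p of 0.0553, so the call needs both libraries of pool 1. Over all alternatives the adjusted p of BAG3, by edgeR or DESeq2, ran from 8.34e-32 to 0.0689. BAG3 is known to be abundant in striated muscle, and in these libraries it moved opposite to the summed striated muscle markers given above. Smooth muscle and myoepithelial genes had 0 of 9 called, with none at 0. They summed to 1001 and 1221 CPM in control and 1412 and 1839 in carcinoma. The sum went in the direction of BAG3, but 4 of the genes rose and 5 fell, with a median log2 fold change of -0.08. The part of either list in the level of BAG3 was not tested.

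BAG2, which inhibits the ubiquitin ligase that works with HSP70, was at 12.1 and 11.4 CPM in C1 and C2 and 17.4 and 15.2 in T1 and T2. Its groups did not overlap, and the paired fit passed it at 0.51 (adjusted p = 3.82e-04 by edgeR), while the unpaired adjusted p was 0.246 and the paired call was lost with DESeq2 (adjusted p = 0.174). BAG6, a chaperone of membrane proteins on their way to the ER, was at 49.5 and 68.6 CPM in the controls and 54.9 and 92.2 in the carcinomas. It differed more between pools than between tissues. BAG6 passed the paired fit as higher (adjusted p = 0.0049 by edgeR), but not each fit with the block. BAG1, which releases the HSP70 client and was measured at 17.6 CPM in both controls and at 16.7 and 19.6 in the carcinomas, was not separated. BAG4, known for silencing death receptors, lay higher in both carcinomas and BAG5 lower in both, with log2 fold changes of 0.32 and -0.13 and unpaired adjusted p of 0.391 and 0.748, and neither passed the paired fit.

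The small heat shock proteins bind unfolding proteins without ATP, and HSPB8 is the partner that BAG3 holds in its complex with HSP70. HSPB8 was at 31.2 CPM in C1 and 29.0 in C2 against 21.4 in T1 and 22.6 in T2, thus below both controls in both carcinomas. Its log2 fold change was -0.46 (SE 0.18, adjusted p = 0.179) in the unpaired fit and -0.51 (adjusted p = 1.39e-05) in the paired fit by edgeR. The partners therefore went in opposite directions. The ratio of BAG3 to HSPB8 CPM, which no scaling of the libraries alters, was 0.369 in C1 and 0.440 in C2. In T1 and T2 this ratio was 1.59 and 1.47. The summed striated muscle markers given above fell as HSPB8 did, and their part in its level was not tested. HSPB1, the actin-binding HSP27, was at 32.7 and 27.8 CPM in the controls and 28.2 and 35.4 in the carcinomas, and fell on opposite sides in the pools. CRYAB, an alpha crystallin of the same family that the symbol rule leaves out, was at 19.8 and 26.4 CPM in control and 31.6 and 30.6 in carcinoma, and passed the paired fit alone at 0.56 (adjusted p = 1.41e-06 by edgeR, 0.0663 by DESeq2).

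**Figure D2:**
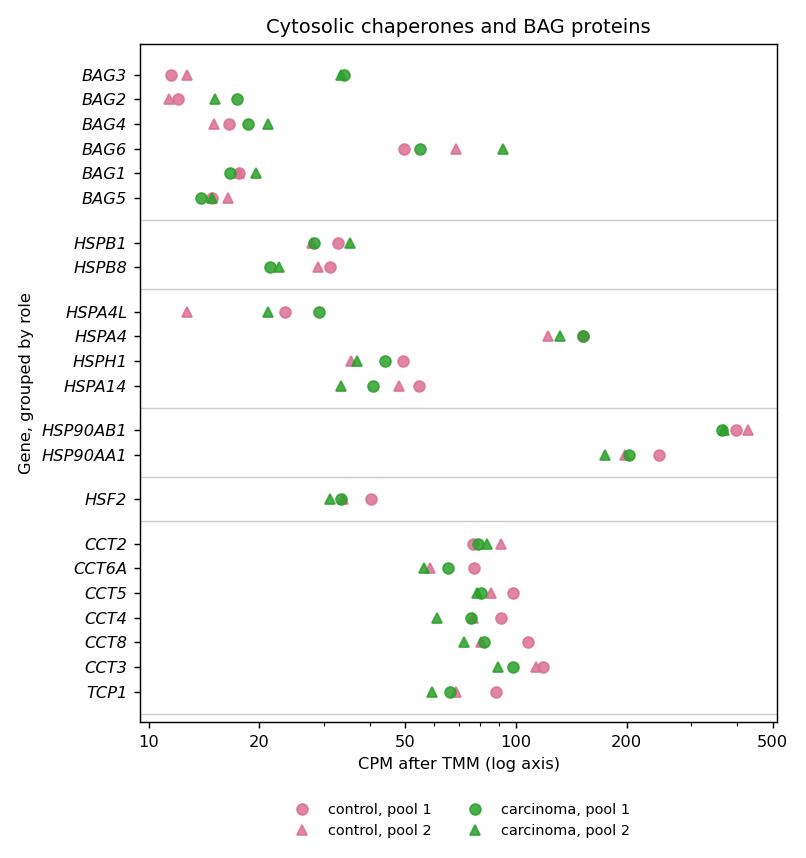
CPM after TMM (log axis) of 22 cytosolic and nuclear members other than J-domain proteins, 1 row per gene, grouped from top to bottom as BAG proteins, small heat shock proteins, HSP70 and HSP110, HSP90, HSF2 and TRiC; pink marks control, green carcinoma, circles pool 1 and triangles pool 2. Green lies clear to the right of pink for BAG3, at 34.0 and 33.3 CPM, and mostly slightly to the left for HSP90 and TRiC.

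Of the HSP70 and HSP110 proteins of the cytosol 4 were measured, and the inducible HSPA1A and constitutive HSPA8 were not analysed here. HSPA4, an HSP110-type exchange factor, was at 152.6 and 121.9 CPM in control and 152.1 and 132.0 in carcinoma, a log2 fold change of 0.05 (SE 0.16). HSPH1, the heat-inducible exchange factor, was at 49.2 and 35.5 CPM in control and 44.1 and 36.9 in carcinoma, a log2 fold change of -0.07 (SE 0.22). For both genes the tissues overlapped. HSPA14, an HSP70 that works at the ribosome, was at 54.5 and 48.0 CPM in control against 40.8 and 33.3 in carcinoma, without overlap, and passed the paired fit at -0.44 (adjusted p = 2.97e-06 by edgeR). HSPA4L, a relative of HSPA4, was at 23.5 and 12.7 CPM in control and 29.1 and 21.1 in carcinoma. It was higher in the carcinoma of each pool, but T2 lay below C1. HSPA4L passed the paired fit (adjusted p = 0.00197 by edgeR), but not each fit with the block.

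Both cytosolic HSP90 genes were slightly lower in carcinoma. Inducible HSP90AA1 was at 244.6 and 198.2 CPM in control and 203.1 and 174.3 in carcinoma, and constitutive HSP90AB1 at 397.3 and 428.4 CPM in control against 364.1 and 368.8. The groups were apart for HSP90AB1 and overlapped for HSP90AA1. The log2 fold changes were -0.23 and -0.17, with unpaired adjusted p of 0.397 and 0.363 and paired ones of 4.25e-04 and 0.00467 by edgeR. With total counts only the paired calls of both were lost (adjusted p = 0.0628 and 0.252 by edgeR), and that of HSP90AB1 also with DESeq2 (0.0702). HSF2, a heat shock factor that acts in development and in concert with HSF1, was at 40.3 and 33.8 CPM in control. In carcinoma it was at 33.5 and 31.2, a log2 fold change of -0.20 (SE 0.18). HSF2 passed the paired fit as lower (adjusted p = 0.0271 by edgeR), but not each fit with the block. HSF1 was not analysed here.

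The 17 J-domain proteins of cytosol and nucleus, of which 7 belong to classes A and B and 10 to class C, gave no call. Their log2 fold changes ran from -0.51 (DNAJB4) to 0.49 (DNAJB1). DNAJB1, the heat-inducible partner of HSP70, was at 16.0 and 26.0 CPM in control and 25.0 and 33.6 in carcinoma. Within each pool the carcinoma was higher, but T1 lay below C2, so only the paired fit passed it, at 0.57 (adjusted p = 2.19e-06 by edgeR; unpaired 0.371). DNAJB4, a close relative of DNAJB1, went the other way, from 45.5 and 34.3 CPM in control to 29.6 and 26.5 in carcinoma without overlap, and passed the paired fit at -0.57 (adjusted p = 7.29e-08 by edgeR). DNAJB12, a membrane-anchored J-domain protein that faces the cytosol, was at 12.8 and 18.8 CPM in the controls and 16.8 and 26.5 in the carcinomas. It was higher in the carcinoma of each pool but overlapped between the tissues. DNAJB12 passed the paired fit (adjusted p = 0.00207 by edgeR), but not each fit with the block. In class C, the endosomal DNAJC13 was at 262.2 and 246.4 CPM in control against 219.0 and 210.6 in carcinoma. Its log2 fold change was -0.24 (SE 0.11, adjusted p = 0.218) unpaired and -0.25 (adjusted p = 1.8e-04) in the paired fit, by edgeR. DNAJC5, the vesicle protein with a cysteine string, had log2 fold change 0.31 (SE 0.35) on as few as 26 counts in C2, and DNAJC21, which serves ribosome assembly, had -0.21 (SE 0.23). Neither passed a fit.

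TRiC is a closed barrel of several different subunits that folds actin and tubulin, and 7 of them were measured (TCP1, CCT2, CCT3, CCT4, CCT5, CCT6A and CCT8). None was called. All 7 log2 fold changes were negative, from -0.33 to -0.04 with a median of -0.29, and they stayed negative in unpaired fits under RLE or total-count scaling and with DESeq2. The exceptions among all fits were CCT2, at 0.08 without C2 and 0.04 in the paired fit with total counts only, and CCT6A, at 0.01 without C1. TCP1 was at 88.1 and 68.6 CPM in control against 66.0 and 59.2 in carcinoma. CCT3 was at 118.3 and 113.6 CPM in control against 98.0 and 89.5 in carcinoma, and CCT8 at 107.9 and 80.4 against 81.8 and 72.3. Libraries did not overlap for TCP1 and CCT3, and for CCT8 T1 lay just above C2. The paired fit passed 6 subunits as lower, among them TCP1 at -0.36, CCT3 at -0.29 and CCT8 at -0.33. Only these 3 passed in each fit with the block, as the calls of CCT4, CCT5 and CCT6A were lost with DESeq2 (adjusted p = 0.0531, 0.139 and 0.346). The seventh, CCT2, was at 76.6 and 91.1 CPM in control and 79.0 and 83.6 in carcinoma, with pool ratios of 0.04 and -0.12 on the log2 scale.

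In the ER the paired fit passed 6 of 15 as higher and 4 as lower, and both carcinomas lay outside the control range upward for 6 and downward for 3, with a median log2 fold change of 0.12. For the 39 members of cytosol and nucleus the paired fit passed 6 as higher and 15 as lower, 3 lay above the controls and 11 below, and the median was -0.04. Among all genes the shares were 33.8% higher and 30.3% lower in the paired fit, and 29.6% and 28.0% for libraries without overlap. In each fit with the block, 5 ER members passed as higher and 1, HSPA13, as lower. In cytosol and nucleus 2 passed as higher and 7 as lower, and among all genes 18.2% and 16.1%. The difference between the compartments was not tested.

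The ER counterparts of HSP70, HSP110 and HSP90 moved in different directions. HYOU1, the ER exchange factor of the HSP110 type, was at 69.1 CPM in C1 and 85.3 in C2 against 111.5 in T1 and 142.8 in T2. Each carcinoma exceeded both controls, and the log2 ratios within the pools, 0.69 and 0.74, were close. The unpaired log2 fold change was 0.72 (SE 0.18, adjusted p = 0.0645) and the paired one 0.71 (adjusted p = 3.72e-19), both by edgeR. HSPA5, or BiP, the central HSP70 of the ER lumen and the usual mark of the unfolded protein response, was at 142.9 and 160.6 CPM in control and 174.8 and 184.7 in carcinoma. It did not overlap either, but its change was small, 0.25 on the log2 scale (SE 0.12, adjusted p = 0.251 by edgeR), and its paired call was lost with DESeq2 (adjusted p = 0.0594). HSPA13, a microsomal HSP70 without the usual substrate-binding part, was at 75.2 and 58.0 CPM in control against 42.2 and 44.6 in carcinoma, the most negative change of the members at -0.63 (SE 0.17, adjusted p = 0.0797; paired -0.72, adjusted p = 1.81e-15, by edgeR). HSP90B1, or GRP94, was at 649.4 and 407.5 CPM in the controls and 565.8 and 401.8 in the carcinomas. It followed the pool more than the tissue. HSP90B1 passed the paired fit as lower (adjusted p = 0.0271 by edgeR), but not each fit with the block.

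The ER J-domain proteins, which serve BiP, had 1 member higher and 2 lower in the paired fit. DNAJC3, which also restrains the kinase arm of the unfolded protein response, was at 297.8 and 243.9 CPM in control and 357.8 and 325.7 in carcinoma, without overlap (log2 fold change 0.33, adjusted p = 0.208; paired 0.32, adjusted p = 8.56e-08, by edgeR). DNAJB9, at 24.7 and 23.2 CPM in control and 26.9 and 22.3 in carcinoma, and DNAJB11, at 37.3 and 27.6 against 31.8 and 27.7, were not separated, although both are known targets of the unfolded protein response. DNAJC1, a membrane protein that recruits BiP, was at 265.5 and 237.1 CPM in control and 230.2 and 201.0 in carcinoma, and DNAJC10, a disulfide reductase, at 189.7 and 189.6 against 178.7 and 157.0. Both lay lower in the carcinomas, with log2 fold changes of -0.22 and -0.17 and paired adjusted p of 0.00103 and 0.0303 by edgeR, and neither passed the paired fit with total counts only (0.0854 and 0.276).

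**Figure D3:**
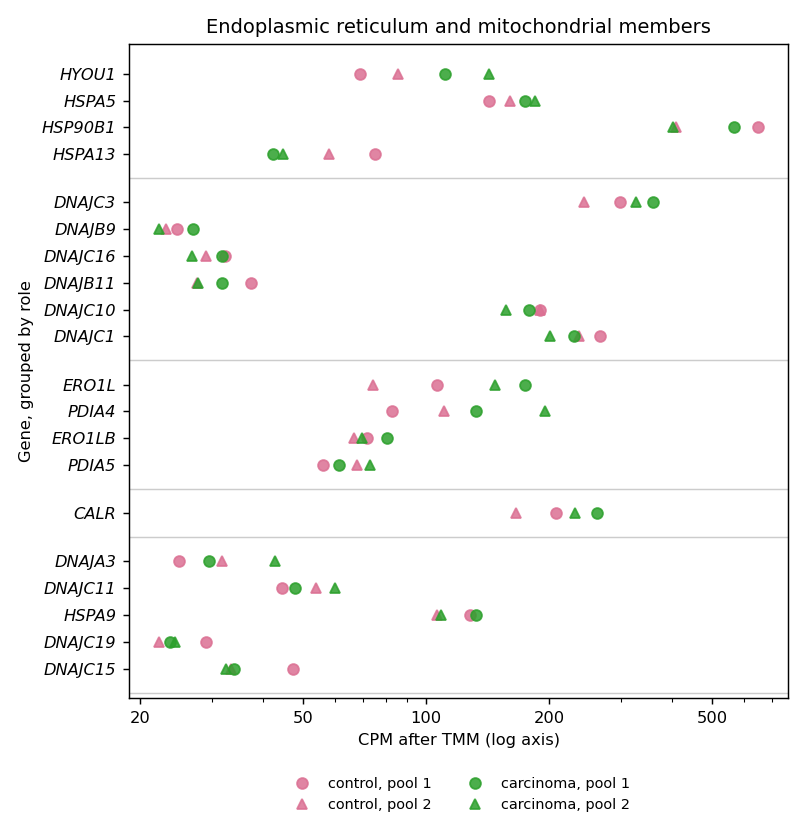
CPM after TMM (log axis) of the 15 ER and 5 mitochondrial members, 1 row per gene, grouped by role, with pink for control, green for carcinoma, circles for pool 1 and triangles for pool 2. Green lies to the right of pink for HYOU1, ERO1L, PDIA4, CALR, DNAJC3 and HSPA5. It lies to the left for HSPA13 and, by smaller gaps, for DNAJC1 and DNAJC10. The circles and triangles of HSP90B1 split by pool at 649.4 and 565.8 against 407.5 and 401.8.

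ERO1L and PDIA4, which serve disulfide bond formation, had the largest log2 fold changes of the ER. ERO1L (ERO1A), the oxidase that recharges the disulfide isomerases and is induced by hypoxia, was at 106.3 CPM in C1 and 74.4 in C2 against 174.2 in T1 and 147.2 in T2. Carcinoma was higher by 0.71 and 0.98 on the log2 scale in pools 1 and 2. The fold change was 1.77 (log2 0.82, SE 0.21, adjusted p = 0.0632; paired 0.80, adjusted p = 4.83e-23, by edgeR), short of the call, and without C1 ERO1L was called at 1.06 (adjusted p = 0.0316). Its adjusted p by edgeR or DESeq2 ran from 4.83e-23 to 0.162 (without T1) over the alternatives, and at any fold it also passed with DESeq2 (0.0076), with total counts only (0.0239) and without T2 (0.0271). Its paralog ERO1LB (ERO1B), which is best known from secretory cells, was at 71.7 and 66.5 CPM in control and 80.4 and 69.6 in carcinoma, with a log2 fold change of 0.12 (SE 0.13). The ratio of ERO1L to ERO1LB CPM was thus 1.48 and 1.12 in the controls against 2.17 and 2.12 in the carcinomas.

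The isomerases split in the same manner. PDIA4 was at 82.7 and 110.8 CPM in the controls and 132.4 and 195.7 in the carcinomas. T1 exceeded C2 by a small margin, and the log2 ratios within pools were 0.68 and 0.82, so that the paired fit passed PDIA4 at 0.73 (adjusted p = 6.29e-21) while the unpaired adjusted p was 0.119, by edgeR. PDIA5 had a log2 fold change of 0.12 (SE 0.16) and passed neither fit. CALR, calreticulin, which binds glycoproteins and calcium in the lumen, was at 207.3 and 166.2 CPM in control and 261.4 and 230.8 in carcinoma, without overlap (0.40, SE 0.15, adjusted p = 0.174; paired 0.39, adjusted p = 1.21e-08, by edgeR). The partners CANX, P4HB, PDIA3 and PDIA6 were not analysed here.

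The 5 mitochondrial members overlapped between the tissues throughout. HSPA9, the HSP70 of the matrix, was at 128.0 and 106.4 CPM in control and 132.7 and 108.9 in carcinoma, with pool ratios of 0.05 and 0.03 on the log2 scale. DNAJA3, its J-domain partner, passed the paired fit as higher at 0.29 (adjusted p = 0.00794 by edgeR), and DNAJC15, a partner of the import machinery, as lower at -0.39 (adjusted p = 1.66e-04). Both calls were lost with DESeq2 (adjusted p = 0.199 and 0.164). DNAJC15 was at 47.3 CPM in C1 and at 32.4 to 33.9 in the other libraries, so C1 stood apart from the rest. DNAJC11 had a log2 fold change of 0.13 (SE 0.18), and the ciliary HSPB11 one of -0.05 (SE 0.23).

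Summed over compartments, the ER members reached 2308 and 1947 CPM in C1 and C2 and 2461 and 2251 in T1 and T2. The cytosolic and nuclear members gave 2513 and 2282 CPM in control and 2255 and 2176 in carcinoma, and the mitochondrial members 247.6 to 273.8 CPM over all libraries. The ER sum of T2 lay below that of C1. ER over cytosol was 0.919 in C1 and 0.854 in C2 against 1.09 in T1 and 1.04 in T2. This ratio is free of library scaling, but single abundant genes weigh in it, HSP90B1 most of all. Without HSP90B1 it was 0.660 and 0.675 in the controls against 0.841 and 0.850 in the carcinomas, and the pools came closer together.

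**Figure D4:**
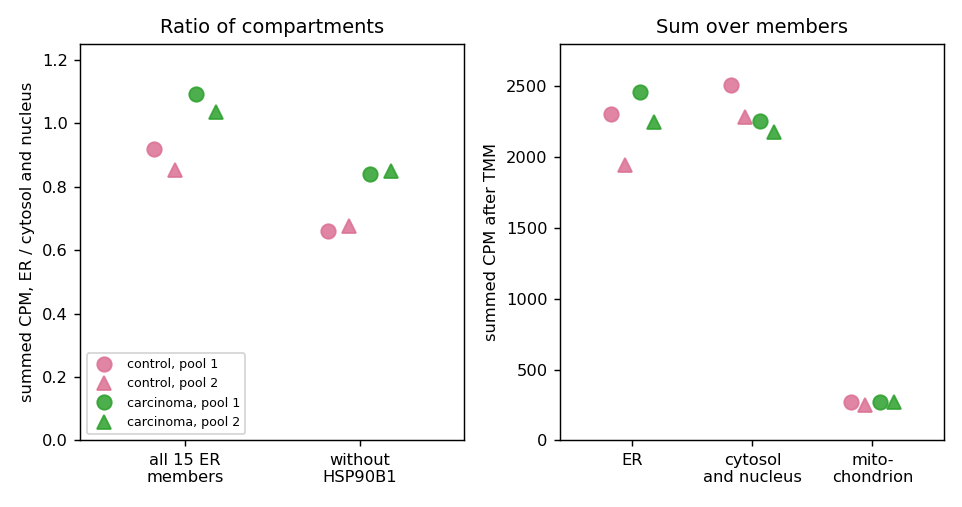
Left, the ratio of summed CPM of ER members to that of cytosolic and nuclear members in each library, for all 15 ER members and without HSP90B1; right, the summed CPM by compartment; pink marks control, green carcinoma, circles pool 1 and triangles pool 2, and both axes start at 0. The ratio over all 15 ER members is higher in both carcinomas (1.09 and 1.04) than in both controls (0.919 and 0.854). Its absolute size and its difference between the tissues both depend on which members were measured.

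Markers of other cells were summed in the same libraries, and each list below held log2 fold changes of both signs. Chondrocyte and cartilage matrix genes, of a cell type that secretes much collagen, had 7 of 13 called higher and summed to 377.0 and 376.5 CPM in the controls against 2667 and 2903 CPM in the carcinomas, with none at 0. Plasma cell genes, of another secretory type, had 0 of 6 called and summed to 432.3 to 460.8 CPM in control and 482.0 to 490.8 in carcinoma. Blood endothelial genes had 4 of 7 called lower, at 698.1 and 717.0 CPM in control and 324.1 and 325.6 in carcinoma. Adipocyte genes had 1 of 4 called lower (CD36), at 240.6 and 239.0 CPM in control and 111.9 and 136.5 in carcinoma, and immediate early genes 2 of 12 (EGR2 and KLF4), at 543.7 and 569.3 CPM in control and 428.4 and 527.5 in carcinoma. None of these markers was at 0, and their part in the levels of the chaperones, like that of the smooth muscle and myoepithelial genes given above, was not tested.

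Genes of the same pathways outside the symbol rule were 71 in 7 lists, of which edgeR called 1 higher and 0 lower, beside 4.62% and 5.24% of all genes, and DESeq2 2 and 0. At an unadjusted p under 0.05, 13 were higher and 3 lower, against 14.6% and 13.9% of all genes. The called gene was HTRA2, a protease of the mitochondrial intermembrane space, which rose from 9.4 and 9.3 CPM to 21.0 and 19.6 (log2 fold change 1.12, SE 0.22, adjusted p = 0.0325 by edgeR). Its call was lost when any 1 library was left out, with adjusted p of 0.1 to 0.207, and was kept under the other alternatives. At any fold the unpaired test also passed CREB3L2 (0.90, adjusted p = 0.00823), an ER-anchored transcription factor of secretory cells, CLPB (0.63, adjusted p = 0.0195), a mitochondrial disaggregase, and ERN1 (0.54, adjusted p = 0.0386), the IRE1 sensor of the unfolded protein response. CREB3L2 was at 343.2 and 347.3 CPM in control against 623.4 and 665.6 in carcinoma, and ERN1 at 96.4 and 102.5 against 138.4 and 150.2. For both genes the libraries of a tissue were close and the tissues apart.

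By list, the paired fit passed 14 of 20 further ER folding factors as higher and 1 as lower (median unpaired log2 fold change 0.36), and 8 of 12 genes of ER-associated degradation as higher and 2 as lower (median 0.27). These stand beside 33.8% higher and 30.3% lower among all genes. Of the 32, the unpaired edgeR test called none, and unpaired DESeq2 called FKBP10 at a log2 fold change of 1.19 (adjusted p = 0.0114). FKBP10, a collagen prolyl isomerase, had the largest value, at 20.0 and 32.9 CPM in control against 44.2 and 77.9 in carcinoma (1.22, adjusted p = 0.108; paired 1.18, adjusted p = 2.91e-26, by edgeR). Sensors and transcription factors of the unfolded protein response were divided, with 3 of 10 higher and 3 lower in the paired fit. ATF4 was at 86.4 and 84.6 CPM in control against 108.7 and 108.6 in carcinoma, and ATF3, which is also an immediate early gene, at 24.6 and 27.4 against 13.5 and 18.4. Co-chaperones of HSP90 and HSP70 outside the rule gave 3 of 16 higher and 2 lower, mitochondrial chaperones and proteases 4 of 9 higher and none lower, and the 3 measured prefoldin subunits none in either direction.

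**Figure D5:**
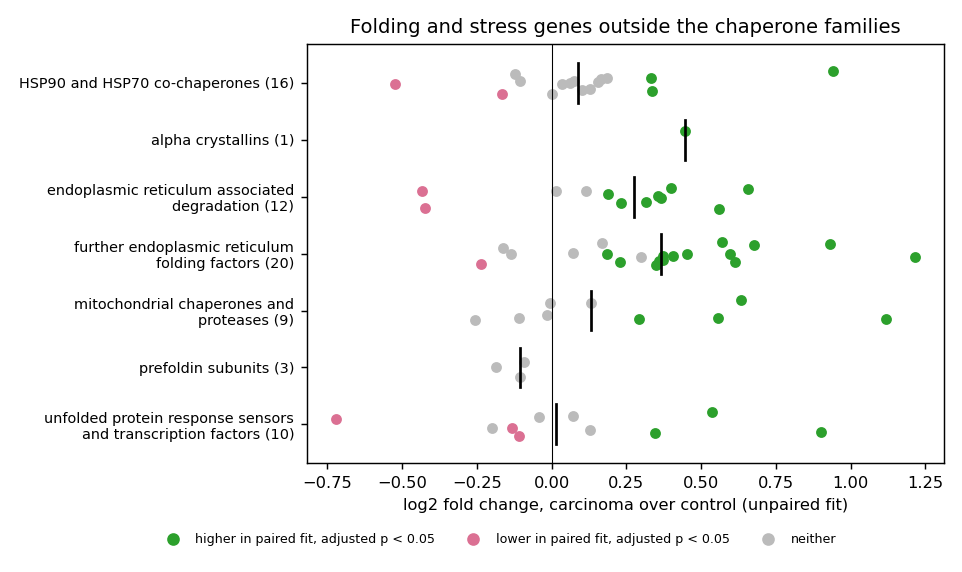
Unpaired log2 fold change (carcinoma over control) of the 71 pathway genes outside the symbol rule, 1 point per gene in 7 lists, with the median of each list as a black bar; green and pink mark genes higher or lower in the paired fit at an adjusted p under 0.05, and grey the others. The medians are 0.36 for further ER folding factors and 0.27 for ER-associated degradation, against 0.09 for HSP90 and HSP70 co-chaperones and 0.01 for the sensors.

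Finally, members varied between the pools of a tissue, which differ in dogs and in depth. By the study's account the dogs of pool 1 were also older on average than those of pool 2. The median log2 ratio of pool 2 to pool 1 was -0.17 in control and -0.13 in carcinoma, beside -0.04 and -0.0018 over all genes. HSP90B1 (-0.67 in control and -0.49 in carcinoma), HSPA4L (-0.88 and -0.46) and DNAJC8 (-0.88 and -0.48) were lower in pool 2 in both tissues. The 13 mitochondrially encoded genes were lower in pool 2 as well, with sums of 25640 CPM in C1 and 12110 in C2 and of 19440 in T1 and 10560 in T2, and their part in these offsets was not tested. DNAJB1 (0.70 and 0.43), DNAJB12 (0.55 and 0.66), DNAJA4 (0.62 and 0.85), BAG6 (0.47 and 0.75) and PDIA4 (0.42 and 0.56) were higher in pool 2 in both tissues. For HSP90B1, DNAJC8, DNAJA4, DNAJB12 and BAG6 the smaller of the 2 offsets between pools exceeded the larger of the 2 ratios between tissues in size, and for PDIA4 both offsets were smaller than both ratios.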

How the data were processed

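Total RNA libraries of 4 pools (3 dogs each) were analysed. The authors deposited whole-number counts per gene, without normalization. The study's methods name TopHat2 and HTSeq, the submitters' processing notes FastQC, STAR, featureCounts and DESeq2. The build and the strand setting were not given in the sources used here. The listed gene lengths, 1371 to 207746 bases for members, include introns, so levels were not compared between genes.

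Counts were tested in R 4.3.3 with edgeR 4.0.16 (filterByExpr, TMM, quasi-likelihood, group only), with DESeq2 1.42.0 as an alternative, after a test on simulated data. The study states that equal pool numbers mark equal dogs. Deviations of such libraries from their tissue mean had a correlation of 0.890 over the 7712 genes that reached 50 counts in each library. Common dispersion was 0.0508 without and 0.00216 with the pool as block. Libraries of a pool are also alike in depth, so these values cannot tell shared dogs from depth. Reading the block fit at any fold was chosen after seeing the data.

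Named were called members, the 3 largest changes in each role, fixed core members, and called pathway genes (up to 4 a list). Members, pathway and marker genes named besides were chosen after their values were seen. Members and lists were chosen with earlier results of these data known. RNA was pooled after extraction, so p-values of the unpaired fits measure the spread between these pools. Those of the paired fit measure what remains after the offset between pools. Each gene has 1 residual degree of freedom there, and edgeR adds to it a dispersion shared over genes. Small paired p-values rest mostly on that shared dispersion. They do not measure how far the change of a single gene varies between pools.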

Additional observations from a re-analysis of the deposited data

How the results depend on the processing

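Of 420 values for the named genes under other settings, 390 kept direction and side of the threshold, 6 lost the call, 1 gained it and none that passed reversed. In 23, over 12 members, the sign changed with the test passed in neither fit. The setting without a filter on low counts repeated the main fit, as the filter removed no gene. Its values among the 390 were therefore bound to be kept. With the replicate block 800 genes were called higher, and leaving out 1 library gave 342 to 509 higher and 421 to 548 lower. Members called higher were 0 to 1 when a library was left out, with 0 without T1 and with ERO1L in place of BAG3 without C1. Pathway genes called higher were 2 with the replicate block, 2 with DESeq2 and 0 to 1 without single libraries. At any fold, the members passed by the replicate block (13 higher, 20 lower) became 1 and 0 without it, 14 and 10 with total counts only, and 7 and 10 with DESeq2. The pathway genes (33 higher, 8 lower) became 4 and 0 without the block, 16 and 4 with DESeq2, and 5 lower with total counts only. The cause was not tested. Of the 33 members passed with the replicate block, 15 passed in every block fit: BAG3, CALR, DNAJB1, DNAJC3, ERO1L, HYOU1 and PDIA4 higher, and CCT3, CCT8, DNAJB4, DNAJC13, HSPA13, HSPA14, HSPB8 and TCP1 lower. The pool medians moved to 0.0573 (control) and -0.0554 (carcinoma) with total counts only, and to -0.17 (carcinoma) with RLE. With 2 pools, no library can be left out of the block fit, and pool 2, with as few as 13 counts for a member, limits weak genes.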
